A study of Mus musculus with 13 samples.

Results

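The 10 genes described here code for products of myeloid cells and natural killer cells: the lysozymes Lyz1 and Lyz2, the neutrophil granule enzymes Prtn3, Mpo and Elane, the Fc receptor Fcgr3, the signalling adaptor Tyrobp, and the natural killer and cytotoxic lymphocyte genes Nkg7, Klrd1 and Prf1. They were followed in the mouse pre-B cell line B3 after retroviral transfer of Ikaros, the zinc-finger transcription factor encoded by Ikzf1 that guides the development of lymphocytes. Every probe set annotated to 1 of the 10 symbols was taken, which gave 13 probe sets among 18194 genes on the Affymetrix 430 2.0 array and 10 among 19938 genes on the Gene 1.0 ST array. The genes were chosen by lineage, with results of these arrays known, among them the low Lyz1 value in Ikaros cells at 48 h, and no cut-off on a measured value was used. The first 3 comparisons below belong to the way they were chosen (Ikaros over 159A at 48 h, and Ikaros-ERt2 at 2 h and at 6 h over vector-ERt2), and there the 10 genes are described by their values. For these 3 comparisons, limma's counts of calls among them are printed beside the rate over all genes, with no p-value for a gene and nothing read from them.

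B3 cells were infected with a retrovirus for Ikaros in its wild-type form (HA-Ikaros-IRES-GFP, 2 arrays) or for 159A (HA-159A Ikaros-IRES-GFP, 2 arrays), a mutant of Ikaros that is deficient in DNA binding, and RNA was taken at 48 h and measured on 430 2.0 arrays. For shorter times, cells carried Ikaros fused to ERt2 (HA-Ikaros-ERt2-IRES-GFP), a hormone-binding domain that responds to 4-hydroxytamoxifen, and gave 3 arrays after 2 h and 3 arrays after 6 h of the compound, beside cells carrying ERt2 alone (ERt2-IRES-GFP, vector-ERt2) after 6 h (3 arrays), on Gene 1.0 ST arrays. All 5 groups thus carried GFP and a retrovirus in 1 cell line, and all ERt2 groups received 4-hydroxytamoxifen. No vector array at 2 h and no Ikaros-ERt2 array without 4-hydroxytamoxifen was among the arrays, so a response to the compound cannot be told apart from a gap between the lines that existed earlier. At 48 h there was no array of cells without either protein. A higher value with Ikaros cannot be told apart from a lower one with 159A. Where a gene rose or fell at 48 h, it was higher or lower in Ikaros cells than in 159A cells. The 2 array types were normalized separately and no level was compared between them. All values are the authors' log2 values per probe set. The level of one probe set was not set against that of another, except in the sums over lists of genes below.

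Lysozymes break down bacterial cell walls. In the mouse, Lyz2 is the form of macrophages and neutrophils and Lyz1 is best known from Paneth cells of the gut. Prtn3 (proteinase 3), Elane (neutrophil elastase) and Mpo (myeloperoxidase) are stored in the primary granules of neutrophils, and are transcribed early in granulocyte development under factors such as PU.1 and C/EBP. Fcgr3 is a low-affinity receptor for IgG that signals through the chain encoded by Fcer1g, and Tyrobp (DAP12) is a membrane adaptor with an ITAM, the motif that recruits the kinase Syk. Klrd1 (CD94) forms receptors with the NKG2 proteins on natural killer cells, Prf1 is the pore-forming perforin of cytotoxic granules, and Nkg7 is a membrane protein of those granules. Pre-B cells are not a usual site of most of these products, and Ikaros is known both as an activator and as a repressor of lineage genes.

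Several of the genes lie side by side. In the RefSeq annotation of mouse build GRCm38.p6, Lyz2 and Lyz1 are neighbouring protein-coding genes on chromosome 10, as are Prtn3 and Elane, while Tyrobp lies next to Hcst on chromosome 7, Klrd1 next to Klrk1 on chromosome 6 and Fcgr3 next to Fcgr4 on chromosome 1. The RefSeq promoter table held 8 of the 10 genes, without Tyrobp and Klrd1. The 200 bases before the annotated start are shown for both neighbouring pairs. At 48 h both lysozymes were lower in Ikaros cells, by unlike amounts, while of the 2 proteases only Prtn3 had a signal. These bases are also shown for Fcgr3 and Nkg7, which were among the widest differences in opposite directions. Each sequence runs 5′ to 3′ on the strand of its gene. The positions are chr10:117292869-117293068, minus strand (Lyz1), chr10:117282273-117282472, minus strand (Lyz2), chr10:79879467-79879666, plus strand (Prtn3), chr10:79886112-79886311, plus strand (Elane), chr1:171059404-171059603, minus strand (Fcgr3, the first of 2 starts in the table) and chr7:43436938-43437137, plus strand (Nkg7). Capitals mark matches, on either strand, to TGGGAA (Ikaros), GAGGAA (PU.1) or TTGCNNAA (C/EBP).
Lyz1: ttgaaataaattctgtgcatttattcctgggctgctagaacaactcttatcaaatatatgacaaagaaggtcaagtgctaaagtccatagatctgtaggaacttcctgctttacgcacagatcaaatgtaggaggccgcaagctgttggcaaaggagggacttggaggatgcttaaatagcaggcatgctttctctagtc
Lyz2: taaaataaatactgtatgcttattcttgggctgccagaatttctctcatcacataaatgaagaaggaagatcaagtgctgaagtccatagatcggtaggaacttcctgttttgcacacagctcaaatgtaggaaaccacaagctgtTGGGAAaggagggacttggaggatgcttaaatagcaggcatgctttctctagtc
Prtn3: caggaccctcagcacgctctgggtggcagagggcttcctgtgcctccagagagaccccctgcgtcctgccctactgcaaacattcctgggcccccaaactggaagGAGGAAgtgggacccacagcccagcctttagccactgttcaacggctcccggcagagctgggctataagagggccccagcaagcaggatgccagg
Elane: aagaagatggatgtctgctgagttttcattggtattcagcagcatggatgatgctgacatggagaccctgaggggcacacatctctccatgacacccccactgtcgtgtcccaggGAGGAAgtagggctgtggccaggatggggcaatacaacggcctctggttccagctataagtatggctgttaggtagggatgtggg
Fcgr3: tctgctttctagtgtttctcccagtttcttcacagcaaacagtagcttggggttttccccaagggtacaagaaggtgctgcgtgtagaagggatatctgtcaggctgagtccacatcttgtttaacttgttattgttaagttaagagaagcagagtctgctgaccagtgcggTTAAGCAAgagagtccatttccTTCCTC
Nkg7: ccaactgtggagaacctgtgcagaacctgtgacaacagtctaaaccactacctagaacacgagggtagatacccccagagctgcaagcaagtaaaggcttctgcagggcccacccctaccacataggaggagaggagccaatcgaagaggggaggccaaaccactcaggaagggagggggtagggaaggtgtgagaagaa

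The 2 lysozyme promoters shared 141 of 200 bases (70.5%) at the same distance from the start, and 92 of the last 100. Prtn3 and Elane shared 53 of 200 (26.5%). TGGGAA was found in 2 of the 8 promoters, at base -54 of Lyz2 and base -142 of Prf1 (counted to the first base of the match, with -1 just before the start), and in 17.3% of all 27025 promoters of this length. GAGGAA was found in 3, at base -95 of Prtn3, base -85 of Elane and, on the other strand, base -6 of Fcgr3, and in 18.9% of all promoters. TTGCNNAA was found in 1, on the other strand at base -28 of Fcgr3, and in 7.47% of all promoters. No 2 of these matches overlapped. Mpo, Lyz1 and Nkg7 had none of the 3 letter patterns in this window, which says nothing about binding of the factors.

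On the 430 2.0 arrays the lowest deposited log2 value was 2.19 and 36.7% of all values lay within 0.01 of it. A group is called near the floor here where all its arrays, or their mean, were at most 3.19, which is 1 log2 unit above the lowest value, and a fold against such a group is a lower bound. Over all probe sets, Pearson's r between 2 of these arrays was 0.987 to 0.995 within a group and 0.967 to 0.973 between the groups, and on Gene 1.0 ST it was 0.989 to 0.994 within and 0.989 to 0.993 between groups. Ikzf1 itself stood at 13.22 to 13.40 in the 6 Ikaros-ERt2 arrays and 9.16 to 9.39 in the 3 vector-ERt2 arrays. The 9.16 was vector-ERt2 replicate 1, for which one label field names inducible Ikaros while the title names the vector. At 48 h, one Ikzf1 probe set lay between 12.08 (Ikaros replicate 2) and 11.61 (159A replicate 2), with both Ikaros arrays above both 159A arrays, and the other read 4.11 and 4.77 in Ikaros cells, against 12.83 and 12.73 in 159A cells. The labels call the samples biological replicates without saying whether cultures were separate, so the spread behind each p-value may be technical.

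At 48 h the 10 genes split by direction. Lyz1, Lyz2, Prtn3 and Nkg7 were lower in Ikaros cells than in 159A cells, Fcgr3, Klrd1, Tyrobp and Prf1 were higher, and Mpo and Elane were near the floor on all arrays. Of the 13 probe sets, 9 differed by at least 1 log2 unit, 4 higher and 5 lower, and all 9 had arrays that did not overlap between the groups, beside 31.6% of all probe sets with 1 symbol. The other 4 probe sets were near the floor in both groups, and 6 of the 9 were near the floor in one of them. With limma, 9 of the 10 genes were tested and 7 were called at an adjusted p under 0.05. Of these, 4 were higher (Fcgr3, Klrd1, Prf1 and Tyrobp), beside 6.38% of all 10916 genes tested, and 3 lower (Lyz1, Nkg7 and Prtn3), beside 8.47%. Since this comparison served to choose the genes, nothing is read from these counts. With any 1 of the 4 arrays left out, which leaves 1 array in a group, none of the 7 calls was kept.

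**Figure D1:**
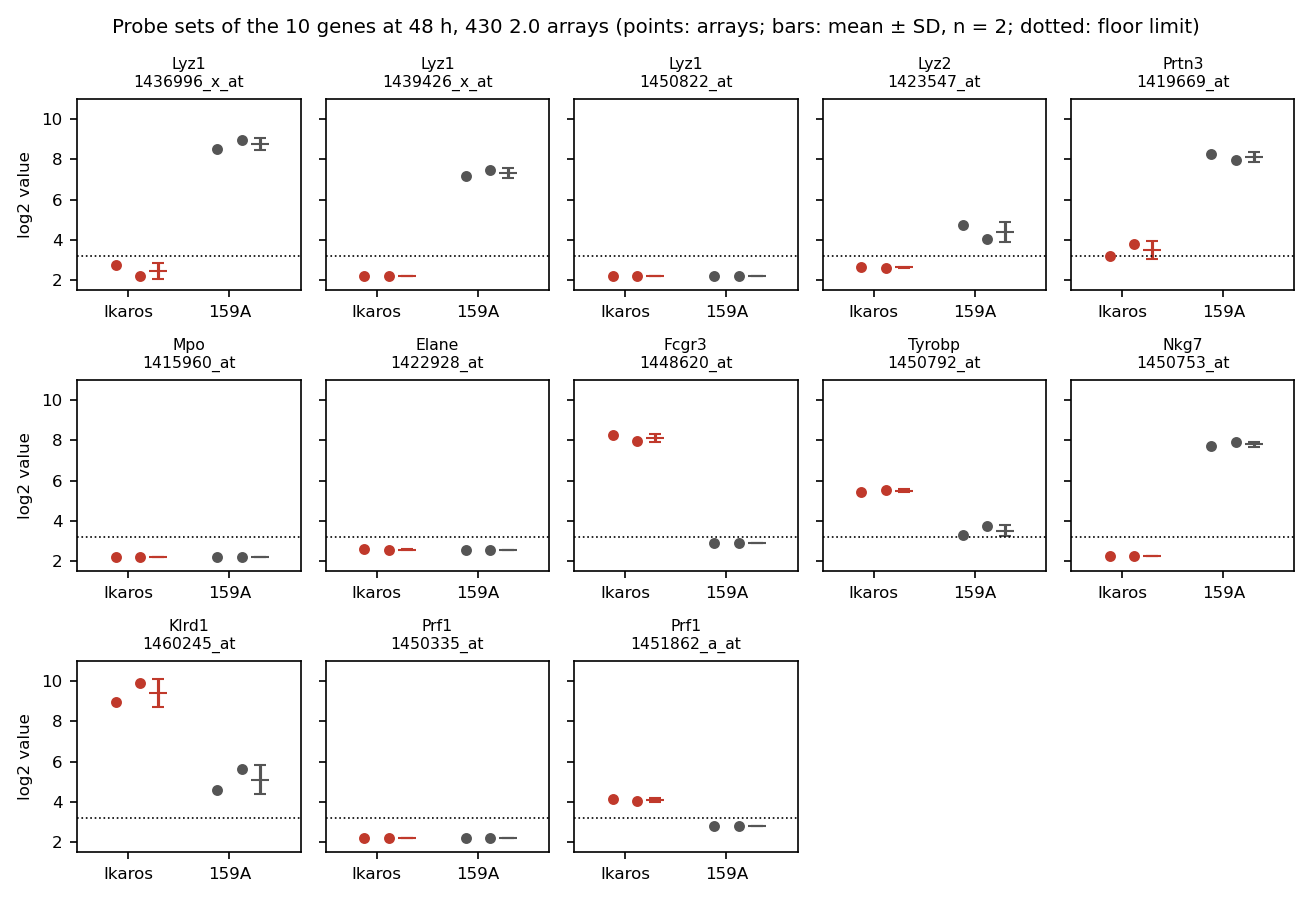
Log2 value of each of the 13 probe sets of the 10 genes at 48 h on 430 2.0 arrays, with 1 panel per probe set, Ikaros cells at left and 159A cells at right. Points are arrays, the bars beside them the mean ± SD (n = 2), and the dotted line the floor limit of 3.19. Both Ikaros arrays lie below both 159A arrays for Lyz1 (2 of its 3 probe sets), Lyz2, Prtn3 and Nkg7, and above them for Fcgr3, Tyrobp, Klrd1 and 1 Prf1 probe set.

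The lysozyme genes were lower in Ikaros cells. Lyz1, on probe set 1436996_x_at, read 2.76 and 2.19 in Ikaros cells, against 8.54 and 8.96 in 159A cells. Both Ikaros arrays were near the floor and both 159A arrays far above it, a difference of -6.27 log2 units, or at least 47.1-fold lower in Ikaros cells. A second Lyz1 probe set, 1439426_x_at, read 2.19 on both Ikaros arrays, against 7.15 and 7.48 on the 159A arrays, at least 17.4-fold lower. The third Lyz1 probe set, 1450822_at, was at 2.19 on all 4 arrays, so the 3 probe sets of this gene did not agree on its level. Both probe sets with a signal carry the suffix _x, by which Affymetrix marks sets that may bind related transcripts, and Lyz2 is a close relative of Lyz1. Lyz2, on its 1 probe set, read 2.67 and 2.63 in Ikaros cells, against 4.75 and 4.03 in 159A cells, at least 2.3-fold lower in Ikaros cells. How the signal of the Lyz1 probe sets divides between the 2 genes was not tested.

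Of the granule enzymes, Prtn3 was the one with a signal. Prtn3 read 3.18 and 3.82 in Ikaros cells, against 8.29 and 7.96 in 159A cells. The groups lay far apart, with means of 3.50 ± 0.45 in Ikaros cells and 8.12 ± 0.23 in 159A cells (SD, n = 2 each), which corresponds to a 24.6-fold lower level in Ikaros cells. Ikaros replicate 1 lay under the floor limit, so this fold has no exact size. Its neighbour Elane read 2.60 and 2.55 in Ikaros cells, against 2.55 and 2.55 in 159A cells. Mpo was at 2.19 on all 4 arrays. Both of these granule genes were thus near the floor with either protein, and no fold can be given for them.

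The Fc receptor and the adaptor were higher in Ikaros cells. Fcgr3 read 8.26 and 7.97 in Ikaros cells, against 2.93 on both 159A arrays. The 159A group was near the floor and the Ikaros group was not, which gave a difference of 5.19 log2 units, or at least 30.4-fold. Tyrobp read 5.44 and 5.55 in Ikaros cells, against 3.33 and 3.73 in 159A cells, a 3.91-fold higher level with both Ikaros arrays above both 159A arrays. The 159A values of Tyrobp lay just above the floor limit.

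The natural killer and cytotoxic genes differed in direction. Klrd1 read 8.94 and 9.92 in Ikaros cells, against 4.62 and 5.62 in 159A cells. Its arrays spread most among the 10 genes (SD 0.69 in Ikaros cells and 0.71 in 159A cells), with replicate 1 the lower in both groups, and the groups did not overlap, with a 19.9-fold higher mean in Ikaros cells. Nkg7 went the other way and read 2.27 on both Ikaros arrays, against 7.73 and 7.90 in 159A cells. The Ikaros arrays were near the floor, so Nkg7 was at least 24.6-fold lower there. Prf1, on probe set 1451862_a_at, read 4.17 and 4.03 in Ikaros cells, against 2.81 on both 159A arrays, at least 1.87-fold higher. The second Prf1 probe set, 1450335_at, was at 2.19 on all 4 arrays, so the higher Prf1 value rests on 1 of its 2 probe sets.

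In Ikaros-ERt2 cells none of the 10 genes differed from vector-ERt2 cells by as much as 1 log2 unit. After 2 h the differences of group means ran from -0.03 (Mpo) to 0.43 (Nkg7), and after 6 h from -0.28 (Lyz1) to 0.29 (Nkg7). The 3 arrays of a group did not overlap with the vector arrays for 3 of the 10 probe sets at 2 h (Lyz2, Prtn3 and Nkg7, all higher in Ikaros-ERt2 cells), beside 13.5% of all probe sets with 1 symbol. At 6 h this held for 1 of 10 (Nkg7, higher), beside 14.8%. Genes with a mean under 5.10, the lowest 40% of genes on this array, were not tested, which left out 8 of the 10. Of the remaining pair, Prtn3 and Prf1, limma called 0 at 2 h, beside 0.769% of 11963 genes higher and 1.1% lower. An unadjusted p under 0.05 was found for 1 of them, beside 1691 of all 11963 genes. At 6 h limma called 0, beside 2.58% higher and 3.2% lower. An unadjusted p under 0.05 was found there for 0 of them, beside 2130 of all 11963 genes. Both comparisons share the 3 vector-ERt2 arrays.

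**Figure D2:**
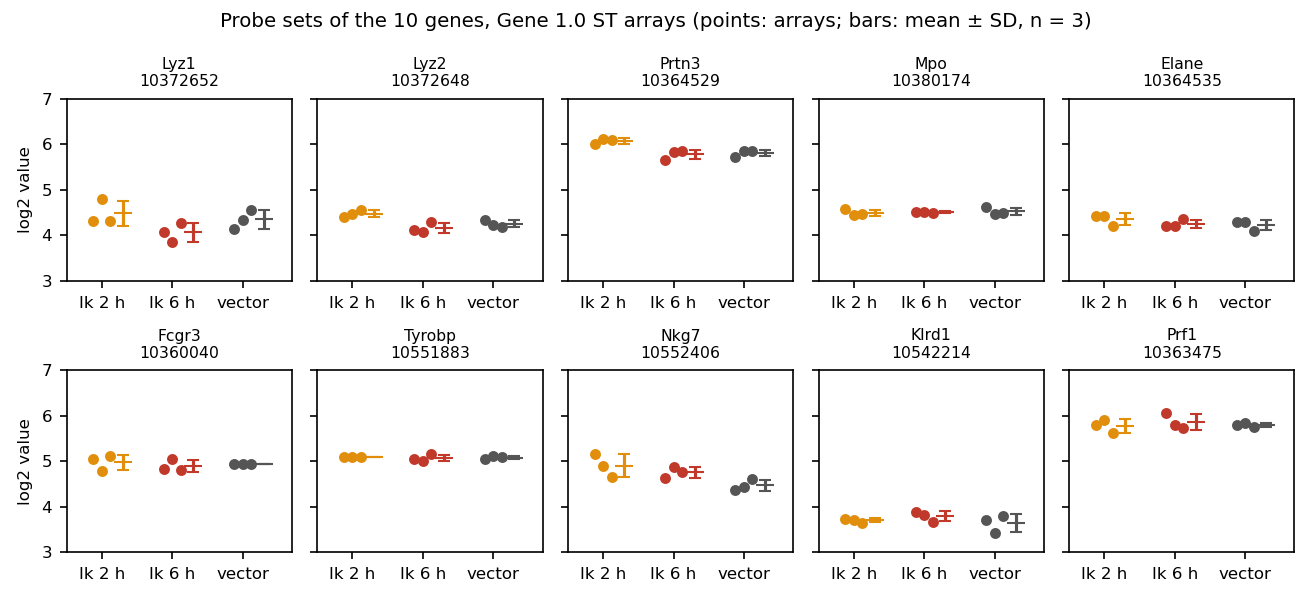
Log2 value of the 10 genes on Gene 1.0 ST arrays, 1 panel per gene, with Ikaros-ERt2 cells after 2 h and 6 h of 4-hydroxytamoxifen (Ik 2 h, Ik 6 h) and vector-ERt2 cells after 6 h (vector). Points are arrays and bars the mean ± SD (n = 3). Nkg7 is the 1 gene whose arrays at both times lie above all vector arrays.

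The genes that were low in Ikaros cells at 48 h gave small differences here. Nkg7 read 5.16, 4.90 and 4.65 at 2 h and 4.64, 4.88 and 4.77 at 6 h, against 4.38, 4.44 and 4.61 in vector-ERt2 cells. All 6 Ikaros-ERt2 arrays thus lay above the 3 vector arrays, though the lowest of them (4.64) was close to the highest vector array (4.61). The group means differed by 0.43 log2 units at 2 h and 0.29 at 6 h, which is the opposite direction to that of Nkg7 at 48 h. Nkg7 lay under the filter on low genes here and was not tested. Lyz1 read 4.33, 4.80 and 4.32 at 2 h and 4.08, 3.86 and 4.28 at 6 h, against 4.15, 4.34 and 4.56 in vector-ERt2 cells. The groups overlapped at both times, with differences of 0.13 at 2 h and -0.28 at 6 h. Lyz2 read 4.41, 4.47 and 4.55 at 2 h and 4.13, 4.06 and 4.30 at 6 h, against 4.35, 4.23 and 4.19 in vector-ERt2 cells. The 2 h arrays were just above the vector arrays and the 6 h arrays overlapped with them. Prtn3 read 6.01, 6.11 and 6.11 at 2 h and 5.66, 5.83 and 5.85 at 6 h, against 5.73, 5.85 and 5.85 in vector-ERt2 cells. It stood 0.27 log2 units above vector at 2 h and differed from it by -0.03 at 6 h.

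The genes that were high in Ikaros cells at 48 h overlapped with vector at these times. Fcgr3 read 5.05, 4.80 and 5.11 at 2 h and 4.83, 5.05 and 4.80 at 6 h, against 4.94 on each of the 3 vector-ERt2 arrays. Tyrobp lay between 5.02 and 5.16 on all 9 arrays, the narrowest range of the 10 genes (0.14). Klrd1 read 3.74, 3.71 and 3.66 at 2 h and 3.88, 3.83 and 3.68 at 6 h, against 3.71, 3.43 and 3.80 in vector-ERt2 cells, and the groups overlapped. Prf1 read 5.80, 5.91 and 5.62 at 2 h and 6.07, 5.80 and 5.74 at 6 h, against 5.80, 5.84 and 5.75 in vector-ERt2 cells, again with overlap. Mpo (4.45 to 4.62) and Elane (4.10 to 4.44) kept to narrow ranges over all 9 arrays.

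**Figure D3:**
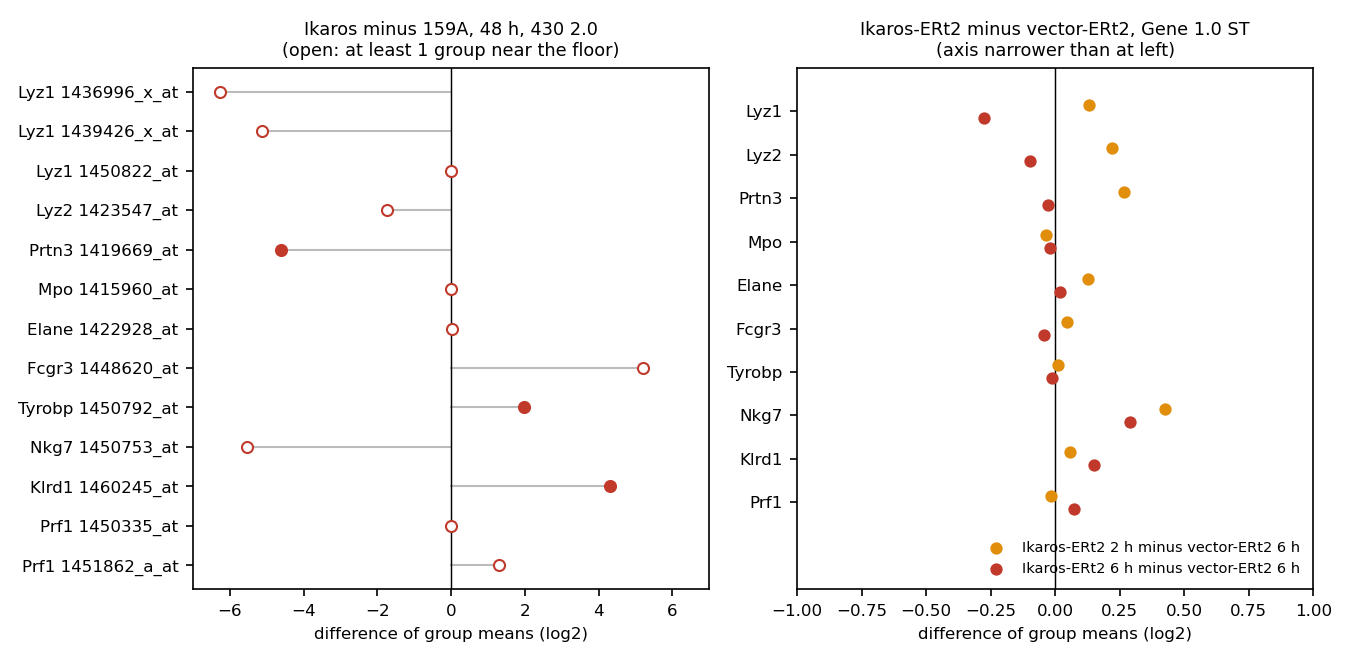
Difference of group means in log2 units per probe set, at left for Ikaros minus 159A at 48 h (430 2.0; open points have at least 1 group near the floor, filled points have none) and at right for Ikaros-ERt2 at 2 h (orange) and 6 h (red) minus vector-ERt2 at 6 h (Gene 1.0 ST, on a narrower axis). The left panel spans -6.27 (Lyz1) to 5.19 (Fcgr3), and all points at right lie between -0.28 and 0.43.

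The 6 h against 2 h comparison within Ikaros-ERt2 cells was not itself named when the genes were chosen. It uses the same 6 Ikaros-ERt2 arrays, and its differences follow from those of the 2 h and 6 h comparisons above. It is thus no separate test, and its p-values are a description only. Its spread comes from the fit of all 9 arrays. Lyz1, Lyz2 and Prtn3 were each lower at 6 h than at 2 h, with no overlap of their arrays, by differences of -0.41, -0.31 and -0.30 log2 units. That was 3 of 10 probe sets, all lower, beside 10.7% of all probe sets with 1 symbol. Only Prtn3 of these passed the filter on low genes, and its change of -0.30 ± 0.08 (SE) had an adjusted p of 0.107 by limma (unadjusted p = 0.0024), so it was not called. Prf1, the other gene tested, changed by 0.09 ± 0.10 (adjusted p = 0.778 by limma). In all, 0 of the 2 were called, beside 0.376% of 11963 genes higher and 0.527% lower. An unadjusted p under 0.05 was found for 1 of the 2, beside 1629 of all 11963 genes. The remaining 7 genes had differences between -0.14 (Nkg7) and 0.09 (Klrd1), with overlapping arrays.

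Over the 9 Gene 1.0 ST arrays, Lyz1 had the widest range of the 10 genes (0.93 log2 units). The 5 tested genes most like it by Pearson r over the 9 arrays, of 11962, were Dnase2a (0.94), Lbp (0.94), Cdh22 (0.94), 4931429P17Rik (0.91) and Tmcc2 (0.91). These values come from 3 groups of arrays hybridised from the same cell line, and Lyz1 itself lay in the lowest 40% of genes, so the list is a description only.

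Other genes of these lineages were read from lists of neutrophil granule, monocyte and macrophage, Fc receptor and ITAM, natural killer receptor and cytotoxic granule genes, none of which holds any of the 10 genes. All lists used here and below were chosen with earlier results of these data known. Calls and p-values of list genes are therefore a description only. Most members of each list just named were near the floor on all 4 arrays at 48 h with every probe set. This held for 16 of 22 neutrophil genes, among them the granule protease Ctsg, the secondary granule genes Ltf, Camp and Ngp and the growth factor receptor Csf3r. It held for 15 of 24 monocyte genes, among them Csf1r, Itgam, Cd14 and Adgre1, and for 8 of 15 Fc receptor and ITAM genes, among them Fcer1g, the signalling chain of Fcgr3, and Hcst, the neighbour of Tyrobp. It held for 10 of 12 natural killer receptors, among them the Klrd1 partners Klrc1 and Klrc2 as well as Klrk1 and Ncr1, and for 14 of 20 cytotoxic genes, among them the granzymes Gzma and Gzmb. The neutrophil genes outside this count were Ctsc, Srgn, Serpinb1a, Gfi1, Mmp9 and Cst7. The monocyte genes outside it were Csf2rb, Mpeg1, Cyba, Ncf1, Ncf4, Spi1, Irf8, Tlr2 and Tlr4. The Fc receptor and ITAM genes outside it were Fcgr1, Fcgr2b, Syk, Zap70, Inpp5d, Vav1 and Plcg2. The natural killer receptors outside it were Klra7 and Cd244a, and the cytotoxic genes were Serpinb9, Lamp1, Rab27a, Stx11, Stxbp2 and Id2. Of B-lineage markers, which define the labelled cell type, 0 of 9 were near the floor. T-cell markers were near the floor in 9 of 11 and erythroid markers in 5 of 6.

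Among neutrophil granule genes at 48 h, 3 of 7 tested were called, 2 higher and 1 lower, with a median log2 change of 0.93 beside 0 over all genes tested. Serpinb1a, an inhibitor of neutrophil elastase, rose to 10.43 ± 0.06 in Ikaros cells, against 3.47 ± 0.32 in 159A cells (SD, n = 2 each), a 124-fold higher level (adjusted p = 0.018 by limma). The 159A mean lay just above the floor limit of 3.19, so this fold has no exact size. With the mean of its probe sets, Serpinb1a rose by 6.15 log2 units (adjusted p = 0.0159 by limma). Srgn, the core proteoglycan of secretory granules, rose by 0.93 log2 units (adjusted p = 0.0236). Cst7, which codes for the cathepsin inhibitor cystatin F, averaged 8.62 ± 0.60 in Ikaros cells, against 11.95 ± 0.01 in 159A cells, a change of -3.33 (adjusted p = 0.0366). All 3 calls, like each call of a list gene at 48 h below, were lost with any 1 array left out, when adjusted p-values of these genes reached 0.243, and with the replicate number as a block, when they ran from 0.0554 (Serpinb1a) to 0.0639 (Cst7).

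Of 13 monocyte and macrophage genes tested, 1 rose and 1 fell, with a median of -0.01 beside 0. The pore-forming macrophage gene Mpeg1 rose by 1.86 log2 units (adjusted p = 0.0369 by limma) and Ncf4, a subunit of the phagocyte oxidase, fell by 0.65 (adjusted p = 0.0329). Of 7 Fc receptor and ITAM genes tested, 2 rose and 0 fell, with a median of 0 beside 0. Fcgr2b, the inhibitory IgG receptor of B cells and a relative of Fcgr3, rose by 3.70 (9.0 ± 0.08 in Ikaros cells and 5.30 ± 0.47 in 159A cells, SD, n = 2 each, adjusted p = 0.0274), and Syk, the kinase that binds ITAMs, rose by 1.96 (adjusted p = 0.0327). Whether the Fcgr3 and Fcgr2b probe sets bind each other's transcripts was not tested. Of 3 natural killer receptors tested, Cd244a (the receptor 2B4) rose by 2.16 (adjusted p = 0.0459), with a list median of 1.76. With the mean of its probe sets, Cd244a rose by 1.57 and was not called (adjusted p = 0.0828 by limma). Of 6 cytotoxic granule genes tested, Stxbp2, which acts in granule release, rose by 1.00 (adjusted p = 0.0227), with a list median of 0.15.

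**Figure D4:**
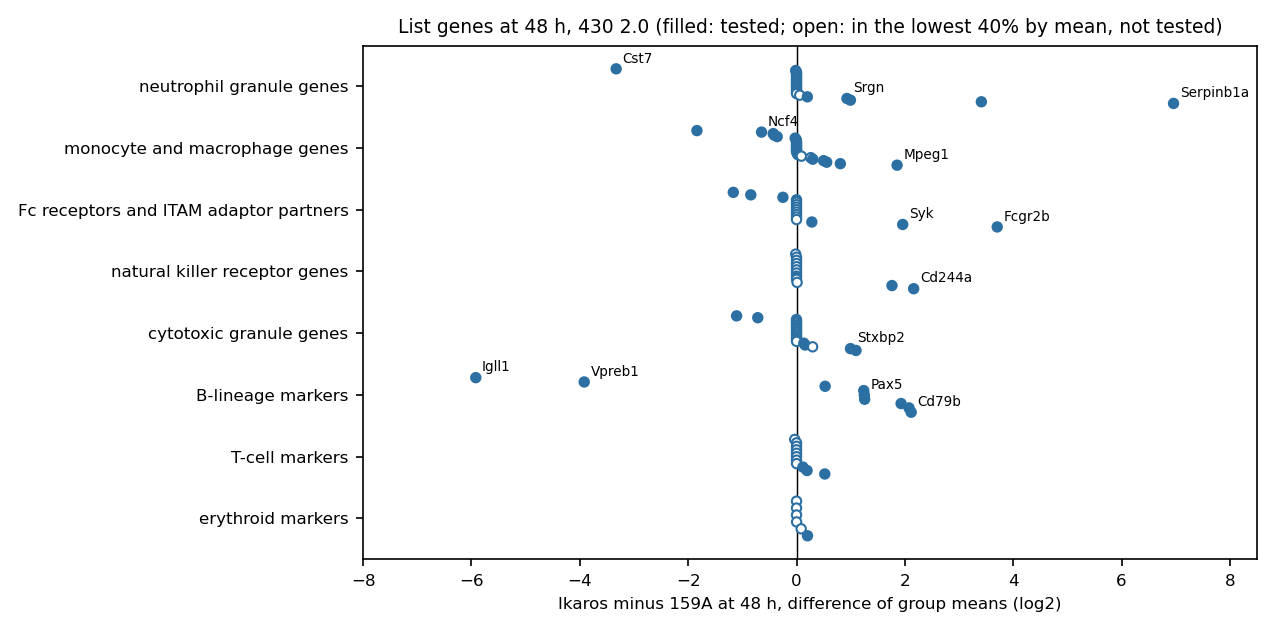
Difference of group means (Ikaros minus 159A at 48 h, log2, 430 2.0) of each gene of 8 lists, 1 point per gene on its highest probe set. Filled points were tested, open points lay in the lowest 40% of genes and were not, points of a list are spread vertically by their order, and the named genes passed the test. Most points of the myeloid, natural killer, cytotoxic and T-cell lists lie at or near 0, and Serpinb1a at 6.96 and Igll1 at -5.92 lie farthest out.

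Of 9 B-lineage markers tested at 48 h, 2 rose and 2 fell, with a median of 1.25 beside 0. The signalling chain gene Cd79b rose by 2.12 (adjusted p = 0.0393 by limma) and the B-cell factor gene Pax5 by 1.25 (adjusted p = 0.0201), while Igll1 and Vpreb1, which code for the surrogate light chain, fell by 5.92 (adjusted p = 0.018) and fell by 3.92 (adjusted p = 0.0313). These values come from the highest probe set of each gene. With the mean of a gene's probe sets, Igll1 fell by 2.96 (adjusted p = 0.0159) and Pax5 rose by 0.63 (adjusted p = 0.0234). Summed over the list on a linear scale, B-lineage markers ran from 65584 to 67245 in Ikaros cells and from 77073 to 83858 in 159A cells. Igll1 and Vpreb1 apart, every marker of this list had a higher mean in Ikaros cells. Those 2 genes made up most of the 159A sum (14.89 and 14.74 in 159A cells, against 8.97 and 10.82 in Ikaros cells). The same sum was 61.1 to 65.9 in Ikaros cells and 58.7 to 59.6 in 159A cells for the 11 T-cell markers, and 56.3 to 57.4 in Ikaros cells and 50.7 to 53.6 in 159A cells for the 6 erythroid markers, with 0 of 3 and 0 of 1 tested genes called. For monocyte and macrophage genes it was 6279 to 10270 in Ikaros cells and 7416 to 10045 in 159A cells, for Fc receptor and ITAM genes 20192 to 28875 in Ikaros cells and 18578 to 24056 in 159A cells, and for cytotoxic granule genes 7086 to 10210 in Ikaros cells and 6393 to 7528 in 159A cells, and the groups overlapped in all 3. For natural killer receptors it was 166 to 168 in Ikaros cells and 72.8 to 78.3 in 159A cells, with no overlap, and the difference lay mainly in Cd244a (6.57 in Ikaros cells and 4.41 in 159A cells). For neutrophil genes it was 47916 to 56189 in Ikaros cells and 29254 to 30109 in 159A cells, again with no overlap. Most of that sum came from Srgn (15.04 in Ikaros cells and 14.11 in 159A cells) and from Ctsc, an activator of granule proteases named after its values were seen (13.95 in Ikaros cells and 12.95 in 159A cells). In RNA from whole cultures, fewer cells of a type and less RNA per cell cannot be told apart.

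In Ikaros-ERt2 cells, list genes that passed the test at 2 h and 6 h did so with changes under 1 log2 unit outside the B-lineage markers. At 2 h, 0 of 7 neutrophil, 0 of 13 monocyte, 0 of 1 natural killer receptor and 0 of 11 cytotoxic genes were called against vector-ERt2. Of 8 Fc receptor and ITAM genes, 1 rose and 1 fell, with a median of -0.08 beside -0.01 over all genes. Inpp5d, the inositol phosphatase that inhibits ITAM signals, fell by 0.54 (adjusted p = 0.00452 by limma), and Fcgr2b rose by 0.39 (adjusted p = 0.0449). The Fcgr2b call at 2 h was lost when any 1 array of either compared group was left out (adjusted p up to 0.19), while that of Inpp5d held with each of the 9 arrays left out. Vpreb1 was the 1 of 8 B-lineage markers called, and fell by 0.52 (adjusted p = 0.0389), a call that was lost with 7 of the 9 arrays left out in turn (adjusted p up to 0.154). With the replicate number as a block, 2 of the 8 B-lineage markers were called at 2 h.

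At 6 h, Fcgr2b was 1.61-fold higher in Ikaros-ERt2 cells than in vector-ERt2 cells, at 5.66 ± 0.17 against 4.97 ± 0.05 (SD, n = 3 each, adjusted p = 0.00128 by limma). Of the 8 Fc receptor and ITAM genes tested, it was the 1 that rose, and 2 fell, Inpp5d by 0.53 (adjusted p = 0.00186) and the phospholipase gene Plcg2 by 0.40 (adjusted p = 0.0223), with a list median of -0.03 beside 0 over all genes. The Plcg2 call was lost without vector-ERt2 replicate 1 or 3 (adjusted p up to 0.103). Of 13 monocyte genes, Spi1, which codes for PU.1, rose by 0.38 (adjusted p = 0.0435), and the cytokine receptor gene Csf2rb and Ncf4 fell by 0.49 (adjusted p = 0.0313) and 0.41 (adjusted p = 0.0299). Of 7 neutrophil genes, Cst7 fell by 0.62 (9.48 ± 0.39 in Ikaros-ERt2 cells and 10.09 ± 0.06 in vector-ERt2 cells, adjusted p = 0.0389). Without Ikaros-ERt2 6 h replicate 3, Cst7 fell by 0.40 (adjusted p = 0.0283). These 4 calls were each lost with at least 3 of the 9 arrays left out in turn, with adjusted p up to 0.164. They and the Plcg2 call were also lost with only the 2 groups compared in the fit, with adjusted p from 0.0581 (Spi1) to 0.109 (Cst7). The call rate was 0 of 1 for natural killer receptors and 0 of 11 for cytotoxic genes.

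Of B-lineage markers at 6 h, 3 of 8 were called, all lower: Vpreb1 fell by 1.17, Igll1 by 1.07 and Blnk, an adaptor downstream of Syk, by 0.94 (adjusted p of 3.0e-04, 7.8e-04 and 0.00373 by limma). These 3 calls held with each of the 9 arrays left out. Between 6 h and 2 h in Ikaros-ERt2 cells, 0 of the tested neutrophil, monocyte, Fc receptor and ITAM, natural killer receptor, cytotoxic, T-cell and erythroid genes were called. B-lineage markers had 4 of 8 called, with Igll1 lower by 0.81 and Vpreb1 by 0.65, and Ebf1 and Cd79b higher by 0.57 and 0.44 (adjusted p of 0.0183, 0.0282, 0.0375 and 0.0354 by limma). Each of these 4 calls was lost with at least 3 of the 9 arrays left out in turn (adjusted p up to 0.147). All 4 were also lost with only the 2 groups compared in the fit (adjusted p from 0.131 to 0.166).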

How the data were processed

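RNA of 13 samples was hybridised to 2 Affymetrix array types, 4 samples to 430 2.0 and 9 to Gene 1.0 ST. The authors deposited log2 values, with 1 value per array for each probe set. Of tools, the submitters' processing notes list RMA, GCRMA, limma and affy, but not which of them served which array type. No version or setting is given in the sources used here. Groups came from the sample titles. Gene symbols came from the platform annotation: 34958 of 45101 and 21789 of 35556 had 1 symbol, 932 and 1621 had several, and the rest were unnamed here. The probe set with the highest mean stood for a gene, and genes in the lowest 40% were not tested, which left 10916 and 11963 genes. The fits (lmFit, then eBayes; two-sided) were made in R 4.3.3 with limma 3.58.1, and calls at an adjusted p (Benjamini-Hochberg) under 0.05, each array type alone, with 1 fit of all 9 Gene 1.0 ST arrays for 3 of the 4 comparisons; it was tested on simulated data. The number of arrays limits the precision.

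The genes and lists were chosen with earlier results of these data known. All 10 genes are named with every probe set, and from each list the called genes, up to 4 with the largest change. Alternatives were other filters on low genes, other rules for a gene's probe set, quantile normalization again, centring on array medians, a trend and robust variance, a replicate block, only the 2 groups compared, and each array left out. Replicate numbers were taken to pair samples where all of at least 3 same-numbered pairs deviated from their group means with r over 0.1. This held for Ikaros-ERt2 2 h and vector-ERt2 (0.119, 0.128 and 0.235), a pairing that comes from the data and not from the labels. These values are small, and replicate 1 of Ikaros-ERt2 at 2 h and 6 h, where the rule did not hold, gave 0.244. They do not show that the samples were paired. Protein sequences were not used here. Promoters came from RefSeq (GRCm38.p6).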

Additional observations from a re-analysis of the deposited data

How the results depend on the processing

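At 48 h, 7 of the 10 genes were called, beside 1621 of all 10916 genes tested, and as above nothing is read from these counts. The count was 8 with quantile normalization again and with centring on array medians, both of which added Lyz2. There, 1948 and 1910 of all genes were called. The count among the 10 was 7 with the mean of a gene's probe sets and with a trend and robust variance. It was 5 with the lowest 20% not tested, a filter chosen after seeing the data. It was 2 with no filter (Fcgr3 and Nkg7) and 1 with every probe set tested (Nkg7), where 185 and 95 of all genes were called against 1621. With the lowest 60% not tested it was 1 (Klrd1), because 1 of the 10 was left to test. The replicate block gave 0, and 0 of all genes were called there. With any 1 array left out, which leaves 1 array in a group, no call was kept. In the 3 comparisons on Gene 1.0 ST, the count stayed at 0 in every alternative run, the replicate block included, where 263, 673 and 125 of all genes were called at 2 h, at 6 h and at 6 h over 2 h, against 223, 692 and 108. Over the alternatives, all genes called ran from 82 to 276, from 335 to 860 and from 0 to 150. Deviations of same-numbered arrays from their group means correlated at 0.572 at 48 h, where 2 pairs are too few to tell a pairing. They correlated at -0.258 to 0.244 between 6 h and 2 h, and at -0.0958 to 0.106 between 6 h and vector, which gave no pairing. At 2 h, where the numbers met the rule for pairing, the replicate block changed no call of a gene named at 2 h. The 9 probe sets that differed by at least 1 log2 unit at 48 h did so, with the same sign, in all 6 alternatives for probe set values. Their arrays did not overlap between the groups, so leaving an array out could not change a sign. They were also picked by this difference, so nothing is read from its stability. The cause of the shifts in the counts of calls was not tested. Counts of list genes called stayed within 1.5 times in 57 of 104 list and setting pairs at 48 h, 127 of 152 at 2 h, 129 of 152 at 6 h and 134 of 152 at 6 h over 2 h. Genes near the floor at 48 h, and the 8 of 10 genes under the filter on Gene 1.0 ST, limit what can be read there.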
